A study of Mus musculus with 4 samples.

Results

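The genes of cholesterol and fatty acid synthesis were read in mouse heart RNA on 4 Affymetrix arrays, as a set of 32 genes listed by name. Each gene was represented by its brightest probe set, among those annotated to that symbol alone, and 31 of the 32 were measured in this way among 18193 genes in all. Acat2, the cytosolic thiolase, had no probe set annotated to that symbol alone and was not analysed. The 31 comprise 16 genes of sterol synthesis and transport, 10 genes of fatty acid synthesis and 5 regulators.

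The labels give the NTg group as 2 wild type mice (arrays NTg 1 and NTg 2) and the Tg-Sirt1 group 2 mice carrying a Sirt1 transgene (arrays Tg-Sirt1 1 and Tg-Sirt1 2). Sirt1 is an NAD-dependent deacetylase, and the series title gives its effect on cardiac gene expression as the question. No further treatment is named beyond the pentobarbital used to kill the mice, and the labels give no age, sex, strain, transgene promoter or transgenic line. Values are on the log2 scale, so that a difference of 1 is a doubling. The level of one probe set cannot be set against that of another.

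Cholesterol is built from acetyl-CoA through the mevalonate pathway, which makes isoprenoid units, joins them into squalene and closes the sterol ring, after which a series of enzymes trims lanosterol to cholesterol. Fatty acids are built from the same acetyl-CoA by ATP citrate lyase, acetyl-CoA carboxylase and fatty acid synthase, and are then elongated and desaturated. Both pathways are controlled by the SREBP transcription factors, encoded by Srebf1 and Srebf2, which the sterol-sensing escort protein SCAP carries to the Golgi for cleavage and the INSIG proteins hold back in the endoplasmic reticulum when sterols are plentiful. SREBP-1 is best known for fatty acid synthesis and SREBP-2 for cholesterol synthesis. The heart oxidizes fatty acids as its main fuel and synthesizes comparatively little, and in muscle the carboxylase product malonyl-CoA mainly restrains fatty acid entry into mitochondria.

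Promoter sequences were available for 24 of the 31 genes. They are shown for 3 of them because the sequences illustrate the elements by which SREBPs and their partner NF-Y are known to act, and because Fasn and Elovl5 were among the genes that differed most between arrays whereas Hmgcs1 heads the sterol pathway. The sequences are from RefSeq on GRCm38.p6, cover the 250 bases before the annotated start and are written 5′ to 3′ on the gene's strand. Capitals mark matches on either strand to TCACNCCAC (the core of a sterol regulatory element), CACGTG (an E-box) or CCAAT (the NF-Y box, which reads ATTGG on the other strand).
Hmgcs1, chr13:119690101-119690350, plus strand: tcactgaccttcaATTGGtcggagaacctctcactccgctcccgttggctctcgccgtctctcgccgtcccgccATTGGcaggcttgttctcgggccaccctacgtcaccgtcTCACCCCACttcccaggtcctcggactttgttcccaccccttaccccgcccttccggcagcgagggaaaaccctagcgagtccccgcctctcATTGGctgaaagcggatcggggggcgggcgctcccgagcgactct
Fasn, chr11:120824548-120824797, minus strand: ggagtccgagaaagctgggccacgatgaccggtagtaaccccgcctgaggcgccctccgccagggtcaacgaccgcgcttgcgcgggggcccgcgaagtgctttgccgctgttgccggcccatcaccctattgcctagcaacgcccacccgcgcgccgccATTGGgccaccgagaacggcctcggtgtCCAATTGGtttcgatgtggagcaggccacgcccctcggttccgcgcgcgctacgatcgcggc
Elovl5, chr9:77917115-77917364, plus strand: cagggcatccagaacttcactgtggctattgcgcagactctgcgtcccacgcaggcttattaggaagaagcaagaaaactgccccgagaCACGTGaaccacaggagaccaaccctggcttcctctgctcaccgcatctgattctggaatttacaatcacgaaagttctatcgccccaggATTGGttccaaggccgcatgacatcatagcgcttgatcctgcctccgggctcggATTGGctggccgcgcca

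The sterol element letters occurred upstream of 1 of the 24 genes, Hmgcs1, at bases -137 to -129 counted back from the start, against 1.22% of all 27025 genes with a window of this length. The CCAAT letters occurred in 19 of 24 (79.2%), against 37.5% of all genes, and in Fasn 2 of the 3 matches overlap on opposite strands. The E-box occurred in 6 of 24 (25%), namely Dhcr7, Elovl5, Hsd17b7, Insig1, Sc5d and Scap, against 6.86% of all genes. Genes with several annotated starts were counted once if any window held the letters. A match describes the sequence only.

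The arrays NTg 1 and Tg-Sirt1 1 carried almost the same values and are here called the pair, with NTg 1 given first wherever both values are printed. Across 45037 probe sets their differences had an SD of 0.0759 and none exceeded 2-fold, whereas in each of the other 5 pairings of arrays 551 to 1101 probe sets did. Among the synthesis genes the 2 arrays of the pair lay at most 0.09 apart. The labels give them as separate mice, but the pair may be 1 RNA or 1 hybridization under both labels, in which case every fold change and SE between the labels counts it on both sides. Sirt1 read 7.30 and 7.17 in NTg and 7.93 on Tg-Sirt1 2, but only 7.16 on the other transgenic array, which is therefore written as the array labelled Tg-Sirt1 1. The 3′ minus 5′ signal of the Gapdh control, which is larger when RNA is less intact, was 0.18 and 0.19 on the pair, 0.69 on NTg 2 and 1.34 on Tg-Sirt1 2. The contractile cardiomyocyte genes Myh6 and Tnnt2 read 13.86 to 13.93 and 13.56 to 13.82, which fits the heart label. Because the arrays of the pair carry opposite labels, what could be described beyond the test of the labels was how NTg 2 and Tg-Sirt1 2 each differed from the pair mean, and these single-array differences have no replicate and no test.

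The test between the labels called none of the synthesis genes. In limma, 0 of 31 passed an adjusted p of 0.05 over all genes (0% of the 18193 genes passed) and 0 of 31 had an unadjusted p under 0.05, where 10 of all genes did. The adjusted p was 0.994 for each of the 31 genes. The Tg-Sirt1 mean was higher for 22 of the 31, against 53.1% of all genes, with a median log2 fold change of 0.17 against 0.02 over all genes. Of the 31, 29 had a mean of 6 or more. Among all 12858 genes of that brightness 7731 were higher, with a median of 0.055. The count of 22 rested on NTg 2, without which 13 of 31 were higher, against 56.5% of all genes. Both Tg-Sirt1 arrays lay above both NTg arrays for 3 genes, Idi1, Cyp51 and Scd1, against 11.4% of all genes, and below them for 1, Acacb, against 9.3%. The shares of genes with separated labels are thus close to or under the background. With 2 arrays per label the smallest p that exact permutation allows is 0.333, and with near-identical arrays under opposite labels the absence of calls does not show that levels were alike.

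**Figure D1:**
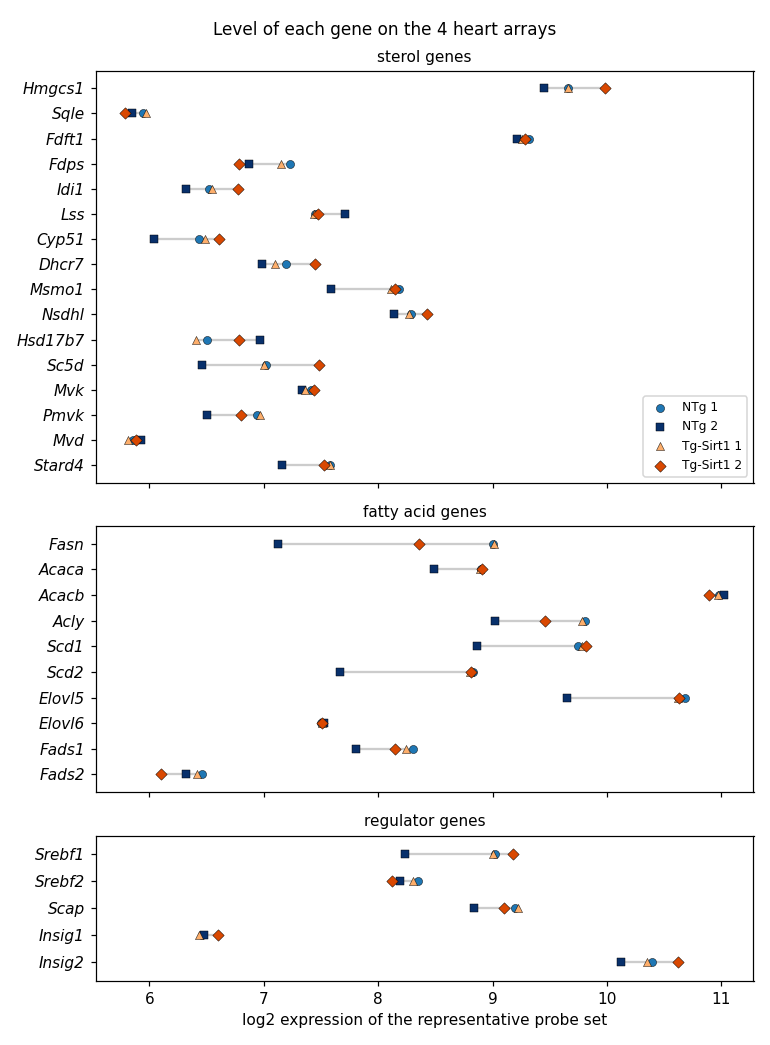
The log2 expression (horizontal axis) of each measured gene is plotted on the 4 arrays, 1 symbol per array and 1 row per gene, with sterol, fatty acid and regulator genes in separate panels and a grey line spanning the 4 values. The symbols of NTg 1 and Tg-Sirt1 1 fall together in every row, and NTg 2 is the lowest for 21 of 31 genes.

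Fatty acid genes showed the widest differences, and these lay on NTg 2. Fasn, the fatty acid synthase that assembles palmitate, read 9.0 and 9.01 on the pair, 7.12 on NTg 2 and 8.36 on Tg-Sirt1 2. NTg 2 was thus 3.69-fold below the pair mean and Tg-Sirt1 2 was also lower, by 0.65 on the log2 scale. The NTg label held both the lowest value and a value near the highest, so the groups overlapped, and the log2 fold change of 0.63 had an SE of 0.59 (95% confidence interval -0.83 to 2.08). It was -0.32 when NTg 2 was left out.

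The stearoyl-CoA desaturases place the double bond in oleate and palmitoleate. Their representative probe sets were low on NTg 2 alone, whereas other Scd2 probe sets, given below, were not. Scd2 read 8.83 and 8.80 on the pair, 7.67 on NTg 2 and 8.81 on Tg-Sirt1 2, so that NTg 2 was 2.21-fold below the pair mean and the other 3 arrays spanned 0.03. Scd1 read 9.75 and 9.78 on the pair, 8.86 on NTg 2 and 9.82 on Tg-Sirt1 2, a 1.87-fold lower value on NTg 2. The 2 Tg-Sirt1 values of Scd1 lay above both NTg values, but only by 0.03 over NTg 1, and the log2 fold change of 0.50 (SE 0.29, 95% interval -0.22 to 1.21) was 0.05 without NTg 2. For Scd2 the log2 fold change was 0.56 (SE 0.36, 95% interval -0.33 to 1.44), and -0.025 without NTg 2.

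Elongation and desaturation of longer chains gave a mixed picture. Elovl5, the elongase of polyunsaturated fatty acids, read 10.68 and 10.62 on the pair, 9.65 on NTg 2 and 10.63 on Tg-Sirt1 2, with NTg 2 again 2.00-fold below the pair mean. Elovl6, which elongates palmitate to stearate, read 7.50 to 7.53 on all 4 arrays. Its log2 fold change was -0.005 with a 95% interval from -0.34 to 0.33, and its values spanned less than those of any other gene of the set. The delta-5 desaturase gene Fads1 read 8.30 and 8.24 on the pair, 7.81 on NTg 2 and 8.15 on Tg-Sirt1 2. The delta-6 desaturase gene Fads2 was lowest on Tg-Sirt1 2 instead, at 6.10 against 6.32 to 6.46 on the others.

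Among the genes that supply and activate acetyl units, Acly, the ATP citrate lyase, read 9.81 and 9.78 on the pair, 9.02 on NTg 2 and 9.46 on Tg-Sirt1 2, with NTg 2 lower than the pair mean by 1.71-fold. The 2 acetyl-CoA carboxylases lay on opposite sides of the pair on that array. Acaca, the cytosolic isoform tied to fatty acid synthesis, read 8.49 on NTg 2 against 8.89 to 8.91 on the other 3 arrays. Acacb, the isoform at the mitochondrial surface that predominates in heart, read 11.02 on NTg 2 against 10.89 to 10.98, a span of 0.13 in all.

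On the representative probe sets, NTg 2 lay over 1.5-fold below the pair mean for 5 of the 10 fatty acid genes. These were Fasn, Scd2, Elovl5, Scd1 and Acly. NTg 2 did so for 1 of the 5 regulators and for 0 of the 16 sterol genes, against 6.01% of all genes. It lay over 1.5-fold above the pair mean for 0 of the 31, against 2.03%. The median difference of NTg 2 from the pair was -0.62 in fatty acid genes, -0.25 in regulators and -0.19 in sterol genes, against -0.005 over all genes and -0.09 over the 12858 genes with a mean of 6 or more, of which 1065 lay over 1.5-fold below. Bright probe sets as a whole read lower on NTg 2, where the 75th percentile of all probe sets was 7.69 against 7.78 to 7.83. After a second quantile normalization, which removes that difference, the count was 4 of 10 fatty acid genes, against 3.6% of all genes. Tg-Sirt1 2 lay over 1.5-fold below the pair for 1 of the 31, Fasn, against 2.64% of all genes, and over 1.5-fold above it for 0, against 1.7%.

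**Figure D2:**
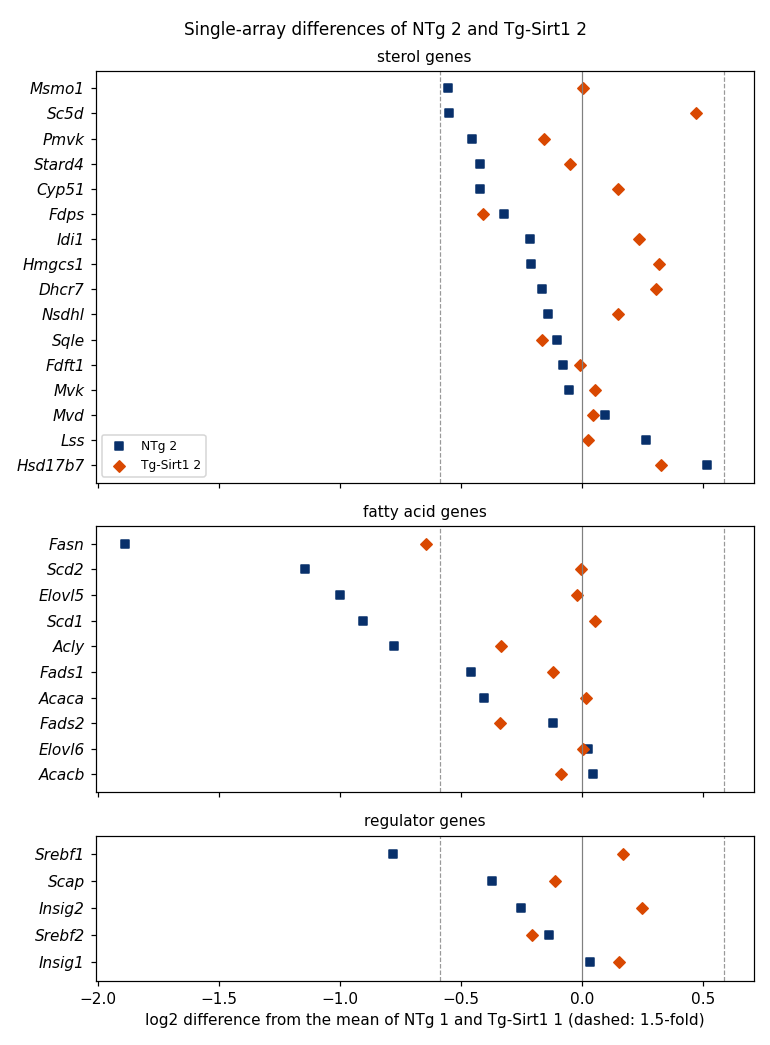
Each row gives 1 gene, with the log2 difference from the mean of NTg 1 and Tg-Sirt1 1 on the horizontal axis for NTg 2 (squares) and Tg-Sirt1 2 (diamonds), and dashed lines at a 1.5-fold difference. The 5 fatty acid genes and Srebf1 with squares left of the dashed line include Fasn at -1.89, whereas all sterol genes lie between the lines and 11 of 16 have their diamond right of 0.

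On the representative probe sets sterol genes differed less, and none lay over 1.5-fold from the pair on either array. Some other probe sets did. A second Stard4 probe set was 1.64-fold below the pair mean on NTg 2, and an Hmgcs1 probe set was 1.54-fold above it on Tg-Sirt1 2. With probe sets averaged, NTg 2 lay over 1.5-fold below for 1 of 16 sterol and 4 of 10 fatty acid genes, against 4.18% of all genes. With arrays centred on their medians the counts were 2 and 5, against 8.12%. Tg-Sirt1 2 alone was highest for 7 of the 16, near the 35.8% of all genes, and lowest for 2, against 23.2%. NTg 2 alone was lowest for 11 of the 16, against 37.9% of all genes, and highest for 3, against 34.3%. Among the 12858 genes with a mean of 6 or more, NTg 2 was lowest for 6148. After the second quantile normalization NTg 2 was lowest for 8 of the 16 sterol genes, against 33.2% of all genes. Over the 31 genes NTg 2 was lowest for 21 and highest for 5.

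At the head of the mevalonate pathway, Hmgcs1, the cytosolic HMG-CoA synthase whose promoter is shown above, read 9.66 and 9.66 on the pair, 9.45 on NTg 2 and 9.98 on Tg-Sirt1 2. Its log2 fold change was 0.27 (SE 0.18, 95% interval -0.17 to 0.70), with 1 array of each label at the same value. It was 0.11 without Tg-Sirt1 2, 0.16 without NTg 2 and 0.43 without the array labelled Tg-Sirt1 1. Of the kinase and decarboxylase steps that follow, the representative probe sets of Mvk and Mvd varied little. Mevalonate kinase, Mvk, read 7.33 to 7.44 and mevalonate diphosphate decarboxylase, Mvd, 5.81 to 5.93 over the 4 arrays. An equally bright second Mvk probe set was highest on NTg 2, at 7.58. It read 7.36 and 7.29 on the pair and 7.29 on Tg-Sirt1 2, with a log2 fold change of -0.18. Phosphomevalonate kinase, Pmvk, was lower on NTg 2, at 6.50 against 6.80 to 6.97.

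The isoprenoid and squalene steps differed in direction on Tg-Sirt1 2. Idi1, which isomerizes isopentenyl diphosphate, read 6.52 and 6.55 on the pair, 6.32 on NTg 2 and 6.77 on Tg-Sirt1 2, so that the labels were separated by 0.03 and the log2 fold change was 0.24 (SE 0.16), but 0.13 without Tg-Sirt1 2 and 0.14 without NTg 2. Fdps, which makes farnesyl diphosphate, went the other way on Tg-Sirt1 2, at 6.78 there and 6.87 on NTg 2 against 7.23 and 7.15 on the pair. The representative probe set of the squalene synthase gene Fdft1 stayed within 9.21 to 9.32. Another Fdft1 probe set read 8.25 and 8.24 on the pair, 8.37 on NTg 2 and 8.86 on Tg-Sirt1 2. Dimmer ones were highest on NTg 2, at 6.26 and 6.30, and lowest on Tg-Sirt1 2, at 5.72 and 5.63. The squalene epoxidase gene Sqle read 5.79 to 5.97 and the lanosterol synthase gene Lss 7.44 to 7.47, apart from 7.71 on NTg 2. Sqle and Mvd were the 2 measured genes with a mean under 6.

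The enzymes that convert lanosterol to cholesterol held the largest sterol difference. Sc5d, the lathosterol desaturase, read 7.02 and 7.0 on the pair, 6.46 on NTg 2 and 7.48 on Tg-Sirt1 2. The pair thus lay between the other arrays, which differed 2.03-fold, and the log2 fold change of 0.50 (SE 0.25, 95% interval -0.12 to 1.12) had the smallest unadjusted p of the 31 genes in limma, 0.0966. It was 0.22 without NTg 2, 0.26 without Tg-Sirt1 2, 0.78 without NTg 1 and 0.16 when its 3 probe sets were averaged. A second Sc5d probe set ran the other way, at 6.15 and 6.21 on the pair, 6.64 on NTg 2 and 6.0 on Tg-Sirt1 2, whereas the third had the order of the representative. Cyp51, the lanosterol demethylase, read 6.43 and 6.49 on the pair, 6.04 on NTg 2 and 6.61 on Tg-Sirt1 2, with a log2 fold change of 0.32 (SE 0.18) and the labels apart by 0.06. That fold change was 0.12 without NTg 2 and 0.51 without NTg 1. The dimmer Cyp51 probe sets were not low on NTg 2. The second read 5.50 and 5.55 on the pair, 5.75 on NTg 2 and 6.13 on Tg-Sirt1 2, and the third 3.90 to 4.02. Dhcr7, which catalyses the last reduction to cholesterol, read 7.19 and 7.10 on the pair, 6.98 on NTg 2 and 7.45 on Tg-Sirt1 2.

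Of the remaining sterol enzymes, the C4 demethylation gene Msmo1 was low on NTg 2 only, at 7.59 against 8.11 to 8.18, while its partner Nsdhl read 8.14 there against 8.27 to 8.43. Hsd17b7 encodes the ketosteroid reductase of the same complex. Its representative probe set was higher on NTg 2 (6.97) and Tg-Sirt1 2 (6.78) than on the pair (6.50 and 6.41). The next brightest did not share this, at 6.27 and 6.46 on the pair, 6.37 on NTg 2 and 6.29 on Tg-Sirt1 2. Dimmer ones, at 5.60 and 5.30 on NTg 2, did. Stard4, a cytosolic sterol carrier, read 7.58 on both arrays of the pair, 7.16 on NTg 2 and 7.53 on Tg-Sirt1 2. The median log2 fold change of the 16 genes was 0.15, with 11 higher and 5 lower.

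Among the regulators, Srebf1 and the representative probe set of Srebf2 had different values on NTg 2. Srebf1, which encodes SREBP-1, read 9.02 and 9.0 on the pair, 8.23 on NTg 2 and 9.18 on Tg-Sirt1 2. NTg 2 was 1.72-fold below the pair mean, and the log2 fold change was 0.47 (SE 0.27, 95% interval -0.20 to 1.13), but 0.07 without NTg 2 and 0.86 without NTg 1. Srebf2, which encodes SREBP-2, read 8.35 and 8.30 on the pair, 8.19 on NTg 2 and 8.12 on Tg-Sirt1 2, with a log2 fold change of -0.06 (95% interval -0.44 to 0.32). A second Srebf2 probe set read 7.08 and 7.23 on the pair, 6.36 on NTg 2 and 6.74 on Tg-Sirt1 2, and so was 1.74-fold below the pair mean on NTg 2, close to the value for Srebf1. The difference between these 2 genes was not tested.

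The escort gene Scap read 9.20 and 9.22 on the pair, 8.84 on NTg 2 and 9.10 on Tg-Sirt1 2, lowest on NTg 2. Insig1, itself a well known SREBP target, read 6.43 to 6.48 on 3 arrays and 6.60 on Tg-Sirt1 2. Insig2 followed the order seen for Hmgcs1 and Sc5d, at 10.12 on NTg 2, 10.39 and 10.35 on the pair and 10.62 on Tg-Sirt1 2. The median log2 fold change of the 5 regulators was 0.14, with 4 higher and 1 lower.

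**Figure D3:**
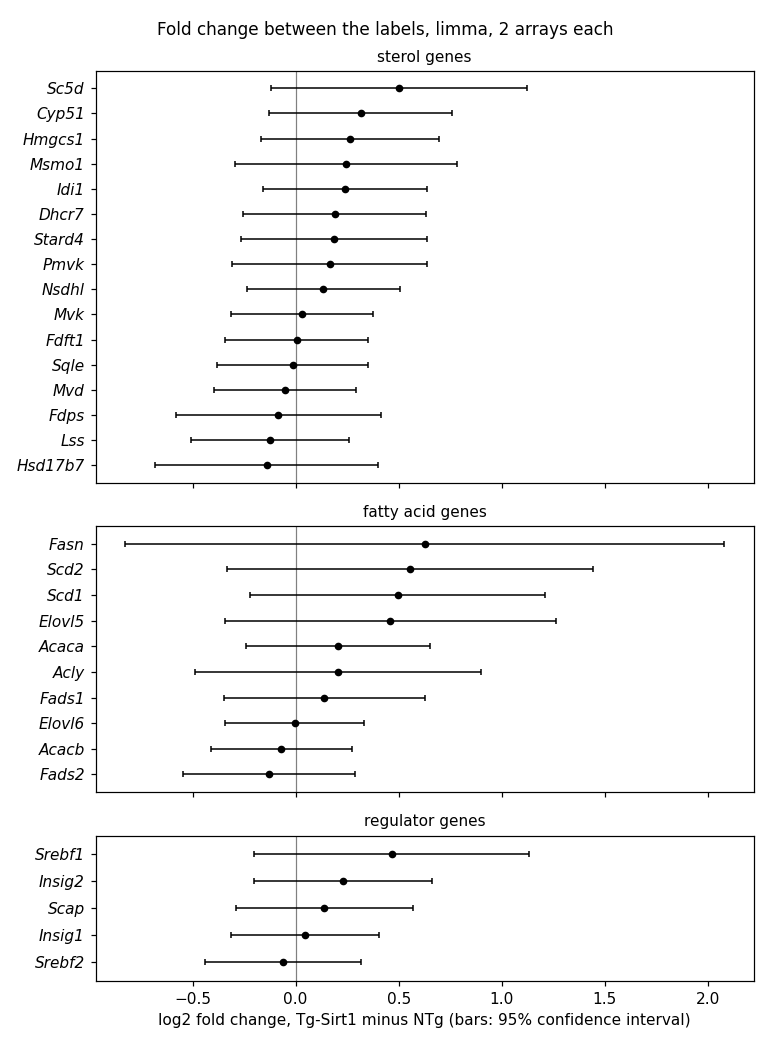
Points give the log2 fold change of the Tg-Sirt1 mean over the NTg mean for each gene and bars its 95% confidence interval from limma with 2 arrays per label, in panels for sterol, fatty acid and regulator genes. All 31 intervals include 0, and the widest is that of Fasn, from -0.83 to 2.08.

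The medians of the 3 groups turned on which array was left out. Fatty acid genes had a median log2 fold change of 0.21 over 10 genes, 7 higher and 3 lower. Leaving out NTg 2 gave -0.05 and leaving out NTg 1 gave 0.51, while the fits that dropped the array labelled Tg-Sirt1 1 or its companion Tg-Sirt1 2 gave 0.16 and 0.28. The sterol median was -0.0025 when NTg 2 was dropped, 0.25 when NTg 1 was, and 0.12 and 0.09 for the arrays labelled Tg-Sirt1. The regulator median was 0.06 and 0.32, then 0.13 and 0.10. Without Tg-Sirt1 2 the comparison is nearly one of NTg 1 with NTg 2, and without NTg 2 nearly one of Tg-Sirt1 2 with the pair.

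When the pair was averaged and counted once as Tg-Sirt1, 11 of the 31 genes had an unadjusted limma p under 0.05, as did 2603 of 18193 genes, all 11 of them higher than on NTg 2, which was then the only NTg array. Scd2, Elovl5 and Scd1 were among these 11, whose p-values rest on 1 array, NTg 2, on one side. When the pair was counted once as NTg, 1 of 31 did, Sc5d, as did 686 of all genes. Sc5d then had a log2 fold change of 0.75, with Tg-Sirt1 2 as the only Tg-Sirt1 array. In both fits 0 genes passed the adjusted threshold, and the lone array of one label is assumed to vary like the other label.

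Other probe sets of the same genes differed from the representative in many cases. The 31 genes had 74 probe sets, and of the 43 others, 20 had a log2 fold change of the opposite sign or of 0 where the representative had one, 0 of them at an unadjusted limma p under 0.05. Low values on NTg 2 recurred on some further probe sets, of Elovl5 (8.66 against 10.02 and 9.99 on the pair), of Scd2 (5.93 against 7.05 and 7.14) and of Acly (7.06 against 8.02 and 8.0). They did not recur on the third Scd2 probe set, where NTg 2 was highest (6.20 against 6.05 and 6.08), or on a second Fads1 probe set (6.47 against 6.19 and 6.15). A brighter Acly probe set was only 1.24-fold below the pair mean on NTg 2 (8.70 against 8.99 and 9.04) and read 9.10 on Tg-Sirt1 2. On a dim Acly probe set NTg 2 was highest (5.39 against 5.19 and 5.21). On Tg-Sirt1 2, the 3 further probe sets of Elovl5, Scd2 and Acly named first read 9.57, 6.16 and 6.93, lower than the pair. The representatives of Scd2 and Elovl5 matched the pair there. Fasn and Srebf1 had 1 probe set each.

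Probe sets of some sterol genes and of the regulator Insig2 also diverged on Tg-Sirt1 2. Of the 4 Hmgcs1 probe sets with a mean of 6 or more, 3 were highest on Tg-Sirt1 2, the representative and 2 others at 9.10 and 8.61, and 1 read 6.91 there against 7.48 and 7.37 on the pair. Insig2 probe sets read 10.62, 9.06 and 8.51 on that array against 10.35, 8.47 and 8.85 on the array labelled Tg-Sirt1 1. A second Stard4 probe set read 6.64 on Tg-Sirt1 2 against 7.90 and 7.86 on the pair. Tg-Sirt1 2 was also the array with the largest 3′ minus 5′ control signal. The positions of these probe sets in their transcripts were not determined, and the part of RNA quality in these values was not tested.

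**Figure D4:**
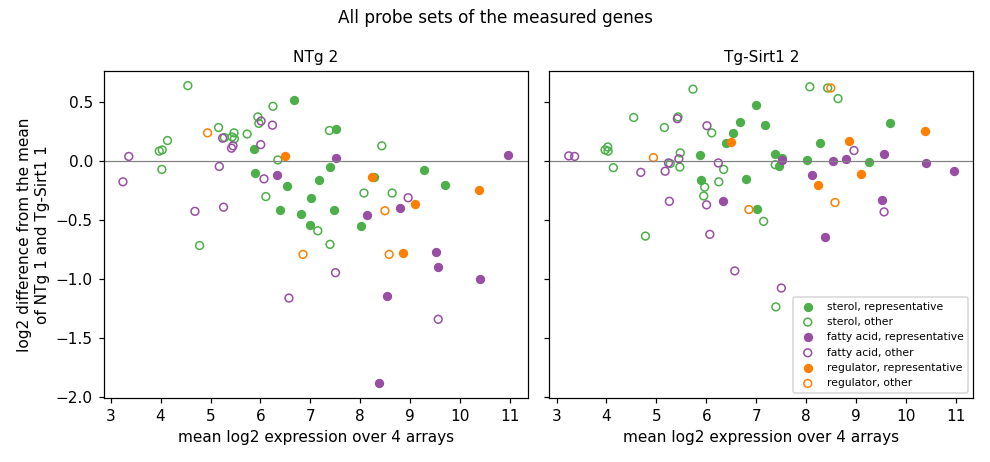
Each point is 1 of the 74 probe sets, filled for the representative of a gene and open for the others, coloured by group, with the mean log2 expression on the horizontal axis and the log2 difference of NTg 2 (left) or Tg-Sirt1 2 (right) from the mean of NTg 1 and Tg-Sirt1 1 on the vertical axis. On NTg 2 the points 1 or more below 0 belong to fatty acid genes, led by Fasn at -1.89, and on Tg-Sirt1 2 the lowest point is an open sterol symbol, the second Stard4 probe set, at -1.24.

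Other genes of the pathways, listed by function, passed the adjusted threshold in no case. The lists held 7 measured sterol enzymes (3 higher and 4 lower in Tg-Sirt1), 10 genes of sterol uptake, storage and efflux (6 and 4), 11 genes of SREBP processing and of the LXR and ChREBP regulators (8 and 3), and 23 genes of fatty acid supply, elongation and glyceride synthesis (14 and 9). Their median log2 fold changes were -0.015, 0.08, 0.08 and 0.09, and 0 of these 51 genes had an unadjusted p under 0.05. The proteases that release SREBPs in the Golgi differed in pattern, as Mbtps1 was low on NTg 2 (8.76 against 9.39 to 9.41) and Mbtps2 high on Tg-Sirt1 2 (8.67 against 8.08 to 8.10). Abca1, the cholesterol exporter and an LXR target, read 9.39 on NTg 2 and 10.22 on Tg-Sirt1 2, with the array labelled Tg-Sirt1 1 between them at 9.97 and NTg 1 within 0.03 of it. Npc1, which moves cholesterol out of lysosomes, ran opposite, at 8.72 on NTg 2 and 8.14 on Tg-Sirt1 2.

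In the last of these lists the genes of smallest p were Hacd3, a dehydratase of fatty acid elongation (log2 fold change 0.31), and Dgat2, which makes triglycerides (-0.35). Dgat2 read 11.20 on NTg 2 against 10.48 to 10.67 elsewhere. Of the other sterol enzymes, the sterol reductase genes Lbr and Tm7sf2 had log2 fold changes of 0.20 and -0.14.

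Markers of fibroblasts were low on NTg 2 along with the fatty acid genes. NTg 2 also lay below the pair mean for 6 of 7 macrophage markers (median -0.52) and 6 of 7 endothelial markers (median -0.46). The same held for 8 of 8 cardiomyocyte markers (median -0.08), against 7851 of the 12858 genes with a mean of 6 or more. Markers of the remaining cell types varied in direction. Bulk RNA cannot tell fewer cells of a type from less RNA per cell. All 8 fibroblast markers were lowest on NTg 2, against 37.9% of all genes. Their summed signal in log2 units was 13.88 there, 14.70 and 14.69 on the pair and 14.34 on Tg-Sirt1 2. Among 6 measured adipocyte markers, which belong to a cell type rich in Fasn and Scd1, Adipoq read 7.50 and 7.56 on the pair, 5.92 on NTg 2 and 6.79 on Tg-Sirt1 2, the same order as Fasn. The brown fat marker Ucp1 read 7.26 and 7.34 on the pair, 6.23 on NTg 2 and 5.97 on Tg-Sirt1 2. The other markers of this list did not share that order, as Retn read 7.23 on NTg 2 against 6.88 to 6.96, and Cidec and Lep read 4.39 to 4.79. Fabp4, which endothelial cells of the heart also express, read 12.69 to 12.73, and the summed adipocyte signal, which it dominates, 12.76 to 12.83.

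The summed macrophage signal was 12.19 on NTg 2 and 12.53 to 12.64 on the others, and the endothelial sum was 11.97 on NTg 2, 12.04 on Tg-Sirt1 2 and 12.39 on both arrays of the pair. Of the 5 measured Schwann cell markers, 3 were highest on NTg 2 (Mbp, Sox10 and S100b), but the sum was lowest there, at 10.73 against 11.03 to 11.08, through Pmp22. Neutrophil markers were higher on NTg 2, at 9.84 against 8.95 to 9.09, with 5 of 6 highest there, against 34.3% of all genes. The summed cardiomyocyte signal was 16.69 to 16.83 and that of 5 liver markers 9.61 to 9.77. The part of cell composition in the values of the synthesis genes was not tested.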

How the data were processed

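Heart RNA, labelled as from 4 mice, was measured on 4 Affymetrix arrays. The deposited values are log2 probe set summaries, made by the authors with RMA in Affymetrix Expression Console, as listed without versions in the submitters' processing notes. RMA quantile normalizes arrays, which removes changes in total RNA, and damps differences of dim probe sets. Scanner files were not used here. Precision is limited by having 4 arrays.

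Of 45101 probe sets, 64 controls were left out. Of the other 45037, 34945 had 1 gene symbol, 932 several and 9160 none in the platform annotation; 34741 matched a RefSeq gene of GRCm38.p6 by Entrez identifier, and 0 symbols changed. Each of 18193 genes was represented by its brightest single-symbol probe set (highest mean over arrays). Labels were compared in limma 3.58.1 (R 4.3.3) with lmFit and eBayes over all genes, two-sided, with Benjamini-Hochberg adjustment and 2 residual and 3.97 prior degrees of freedom. Other probe sets were fitted over all probe sets. The fit was tested on simulated data. Nothing says whether the mice shared a litter, and p-values measure only the spread between these arrays.

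The members and lists were chosen with earlier results of these data known. Every member was named, with the 2 genes of smallest p per list of other pathway genes. Exceptions chosen after their values were seen were Sirt1, Adipoq, Ucp1, Fabp4, Retn, Cidec, Lep, Pmp22, Myh6, Tnnt2, Mbp, Sox10 and S100b. Alternatives covered left-out arrays, a replicate block, dim genes, normalization, an offset of 16, probe set choice, the prior and the near-identical pair counted once.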

Additional observations from a re-analysis of the deposited data

How the results depend on the processing

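No setting gave a gene past the adjusted threshold in limma, among the 31 genes or all genes, although an unadjusted p under 0.05 was reached by up to 11 of the 31 and up to 2603 of all genes where the near-identical pair was counted once as Tg-Sirt1. The sign turned in no setting for 12 of the 31, of which Acaca was at 0 without NTg 2. The sterol median of 0.15 was -0.0025 to 0.25 with single arrays left out, 0.018 when each gene's probe sets were averaged and 0.27 with the near-identical pair counted once as Tg-Sirt1. Under those last settings the fatty acid median of 0.21 was 0.084 and 0.51, and after a second quantile normalization 0.12. The regulator median of 0.14 was 0.076 after that normalization and 0.32 if the pair counted once as Tg-Sirt1. The count of genes with a higher Tg-Sirt1 mean, an alternative chosen after seeing the data, was 13 to 25 with single arrays left out. Log2 fold changes that changed sign with an array left out ranged from -0.11 to 0.075 for Sqle, -0.27 to 0.10 for Fdps, -0.15 to 0.03 for Srebf2, -0.05 to 0.06 for Fdft1, -0.26 to 0.005 for Lss, -0.05 to 0.54 for Msmo1, -0.38 to 0.10 for Hsd17b7, -0.01 to 0.07 for Mvk, -0.055 to 0.39 for Pmvk and -0.025 to 0.40 for Stard4. The same ranges were -0.32 to 1.57 for Fasn, -0.19 to 0.60 for Acly, -0.025 to 1.14 for Scd2, -0.055 to 0.98 for Elovl5, -0.02 to 0.01 for Elovl6, -0.11 to 0.39 for Fads1, -0.29 to 0.03 for Fads2, -0.04 to 0.32 for Scap and -0.04 to 0.13 for Insig1. Other sign changes came with averaged probe sets (Srebf2 0.10, Fads1 -0.02, Stard4 -0.013, Mvk -0.075, Fdft1 -0.099), a second quantile normalization (Mvk -0.20, Fdft1 -0.087, Sqle 0.034), centring on medians (Elovl6 0.03, Sqle 0.02) and no _x_at or _s_at probe sets (Hsd17b7 0.055). With the pair counted once as NTg, Hsd17b7 was 0.068, and counted once as Tg-Sirt1, Srebf2 was 0.033, Sqle 0.023 and Fdps 0.12. The cause was not tested. With the replicate number as a block, 0 of 31 genes passed (lowest adjusted limma p 0.935) and the median fold changes were 0.15, 0.21 and 0.14 for sterol, fatty acid and regulator genes. The labels do not say that the numbers pair the mice. Deviations of same-numbered arrays from their label means correlated at 0.207 over genes. The near-identical arrays NTg 1 and Tg-Sirt1 1 put almost the same value into both deviations, so this correlation cannot show whether the numbers pair the mice.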
